A study of Mus musculus with 12 samples.

Results

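Mirtrons are miRNAs whose hairpin precursor is itself a short intron of a protein-coding gene. The spliceosome and the debranching enzyme release such a hairpin, which is then cut by Dicer, so that the Drosha cut of a canonical primary transcript is bypassed. Either arm of the hairpin can be loaded into an Argonaute protein, and the loaded arm pairs with target transcripts mainly through its seed, the bases near its 5′ end. In the naming of the array a star marks the arm that had been regarded as the minor one.

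The members are the array names with the stem miR-877, miR-1224 or miR-702, with or without a star or an arm suffix. They are 5 of the 1096 miRNA names on the array, namely mmu-miR-1224, mmu-miR-1224*, mmu-miR-877, mmu-miR-877* and mmu-miR-702, written below without the species prefix. A mean intensity of at least 32 over all 12 samples was required for a test across miRNAs. Of the 5 members, 3 passed it (miR-1224, miR-877 and miR-877*), among 370 names in all. miR-877 passed with a mean of 37.8, which was 31.2 with the library KO1 left out.

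The intensities came from quadriceps muscle of C57Bl/6 mice at postnatal day 7, with 1 array sample per mouse. There were 6 wild-type mice (WT1 to WT6) and 6 Cfl2-KO mice (KO1 to KO6), which lack cofilin-2, an actin-severing protein of skeletal muscle, and which the methods describe as littermates of the wild-type pups. The deficiency affects the whole animal, and a level here is that of whole muscle tissue, in which fewer cells of a type and less RNA per cell cannot be told apart. By the labels every WT sample was dyed with Cy5 and every KO sample with Cy3, so dye and genotype cannot be told apart either.

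The mature sequences of the 5 members are shown because the seed defines which targets an arm can pair with. They were taken from RefSeq (GRCm38.p6), 5′ to 3′, with the seed (bases 2 to 8) in capitals.
miR-877: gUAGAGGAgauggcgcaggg
miR-877*: uGUCCUCUucucccuccuccca
miR-1224: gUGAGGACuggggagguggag
miR-1224*: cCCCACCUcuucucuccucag
miR-702: uGCCCACCcuuuaccccgcucc
All 5 seeds differed, and no other mature mouse miRNA in the RefSeq table carried any of them. The 5′ arms were rich in purines, which made up 80% of miR-877 and 81.0% of miR-1224. The 3′ arms were rich in pyrimidines, at 90.9% of miR-877*, 85.7% of miR-1224* and 81.8% of miR-702. The longest run of bases that any 2 members shared was 9 bases, in miR-877* and miR-1224*.

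The hairpins are shown with both arms in capitals, because the first and last bases of a mirtron hairpin are those of the intron.
Mir877: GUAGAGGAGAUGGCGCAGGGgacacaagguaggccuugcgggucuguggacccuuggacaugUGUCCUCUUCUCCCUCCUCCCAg
Mir1224: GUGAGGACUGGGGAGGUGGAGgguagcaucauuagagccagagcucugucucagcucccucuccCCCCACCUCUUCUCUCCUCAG
Mir702: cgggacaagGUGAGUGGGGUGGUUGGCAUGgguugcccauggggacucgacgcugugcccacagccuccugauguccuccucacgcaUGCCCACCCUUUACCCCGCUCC
Mir877 lies at chr17:35960730-35960814 on the minus strand, within the span of Abcf1 (chr17:35956819-35969750, minus strand), which encodes an ATP-binding cassette protein that acts in translation initiation. Mir1224 lies at chr16:20604452-20604536 on the plus strand, within Vwa5b2 (chr16:20589428-20605378, plus strand), which encodes a protein with a von Willebrand factor A domain. Mir702 lies at chr5:136991433-136991541 on the plus strand, within Plod3 (chr5:136987019-136996646, plus strand), which encodes a lysyl hydroxylase that modifies collagen. The table used here gives gene spans and not exons.

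The hairpin ends were set beside the label mirtron. The hairpins of Mir877 and Mir1224 began with GU and ended with AG, the bases that mark the ends of most introns. Such ends were found in 30 of the 1005 mouse hairpins of the table, or 2.99%. They were found in 4.87% of the 493 hairpins within a protein-coding gene on its own strand, and in 1.17% of the 512 others. The Mir702 entry, of 109 bases against 85 in each of the other hairpins, began with CG and ended with CC. It lacked such ends, and miR-702 is counted among the mirtron miRNAs here by its name. The entry holds 9 bases before its 5′ arm, which begins with GUGAGU.

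Of the 7 skeletal muscle miRNAs listed, 6 were found and 4 of these were bright in every sample. miR-1a, a muscle-specific miRNA, lay between 39535 and 71199, miR-206, a miRNA of myogenic cells, between 21266 and 29194, and miR-133a and miR-133b between 4180 and 11466. miR-499 and miR-208b, which lie in myosin heavy chain genes, were dim, at 3 to 30 and 1 to 9. The blood list (miR-451, miR-144, miR-223 and miR-142-3p) summed to 64 to 431 in WT and 21 to 335 in KO. Its brightest member, miR-451, lay at 43 to 417 in WT and 16 to 318 in KO. The log2 change of miR-451 was -0.94 (SE 0.69, limma, adjusted p = 0.497). miR-223 reached at most 15, and miR-144 and miR-142-3p were at 7 or below throughout. The neural list summed to at most 38 and the liver miRNA miR-122 reached at most 16. Intensities summed to 594311 to 636136 per sample, with a median name at 12 to 14. KO1 stood apart from its group. Its mean Pearson correlation with the other KO samples across the tested miRNAs was 0.848, against 0.907 to 0.945 for the other KO samples and 0.949 to 0.970 for WT, so that results that rest on it are given with and without it.

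The members spanned a wide range of intensity, and 2 of them, the 5′ arm of Mir1224 and the 3′ arm of Mir877, were brighter in KO. Without adjustment, both had a limma p under 0.05, so 2 of the 3 tested members were past this threshold and higher in KO, against 9.73% of all tested miRNAs. After Benjamini-Hochberg adjustment over the 370 tested miRNAs, 0 of the 3 were past 0.05 in limma, against 1.35% of all tested. With KO1 left out, 2 of the 3 were past the adjusted threshold and higher in KO, against 5.95% of all tested. The p-values rest on the spread between mice.

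**Figure D1:**
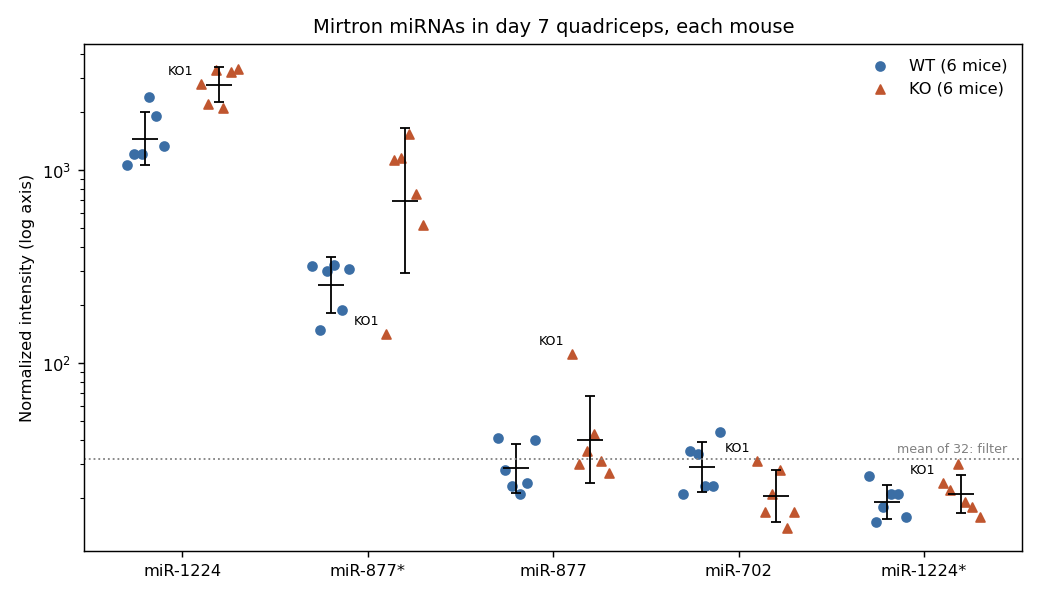
Intensity of the 5 mirtron miRNAs in each mouse (log axis, points), with the mean and SD of the log2 values of each group as line and bar and KO1 marked. miR-1224 and miR-877* lay higher in most KO mice, KO1 was at 141 for miR-877* and at 111 for miR-877, and miR-1224* and miR-702 lay near or under the dotted line at 32.

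miR-1224, the 5′ arm of Mir1224, was the brightest member. Its intensity was 1059, 1208, 1211, 2389, 1914 and 1333 in WT1 to WT6 and 2795, 2214, 3313, 2088, 3218 and 3332 in KO1 to KO6. WT4, at 2389, was the only WT sample within the KO range, and 4 of the 6 KO samples lay above every WT sample. The mean was 1519 ± 520 in WT and 2827 ± 560 in KO (SD, n = 6 each). The log2 change was 0.93 (SE 0.24), which is 1.91-fold with a 95% interval of 1.34 to 2.73. The limma p was 0.00173 before adjustment, the 10th smallest of 370, and the adjusted p was 0.0615. The two-sided exact permutation test of this single miRNA gave p = 0.00649, where the smallest possible value with 6 against 6 samples is 0.0022.

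KO1 did not stand apart in miR-1224. It differed from the mean of the other KO samples by 0.01 on the log2 scale, and with KO1 left out the log2 change stayed at 0.93 (SE 0.25), with an adjusted limma p of 0.0337. With WT4 left out it was 1.08, with an adjusted limma p of 0.0303. The call at the adjusted threshold thus turned on single mice while the size of the change varied between 0.84 and 1.08 over the 12 samples left out in turn. miR-1224 had less spread among the KO samples than most tested miRNAs, with an SD of its log2 intensity of 0.30 against a median of 0.61.

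The other arm of that hairpin, miR-1224*, was dim. Its intensity was 26, 15, 18, 21, 21 and 16 in WT1 to WT6 and 24, 22, 30, 19, 18 and 16 in KO1 to KO6. The groups overlapped over nearly their whole range, and every value was under 32. The log2 difference was 0.13, with p = 0.455 in the two-sided exact permutation test. These values were near the median name of the array, at 12 to 14, so the array could hardly resolve a difference in this arm.

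miR-877*, the 3′ arm of Mir877, showed the largest difference among the members. Its intensity was 318, 148, 301, 324, 188 and 309 in WT1 to WT6 and 141, 1132, 1162, 1537, 755 and 522 in KO1 to KO6. KO2 to KO6 all lay above the highest WT sample, at 324, and KO1 lay below the lowest, at 148. The mean was 265 ± 76.3 in WT and 875 ± 503 in KO (SD, n = 6 each), a ratio of means of 3.31. On the log2 scale the change was 1.45 (SE 0.49), which is 2.74-fold with a 95% interval of 1.31 to 5.71. The limma p was 0.0109 before and 0.125 after adjustment, and the two-sided exact permutation test gave p = 0.0281.

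For miR-877*, KO1 minus the mean of the other KO samples was -2.76 on the log2 scale, the 23rd lowest such deviation of the 370 tested miRNAs. With KO1 left out, the KO mean was 1022 ± 393 (SD, n = 5), and the log2 change was 1.91 (SE 0.31), or 3.77-fold, with an adjusted limma p of 0.0103. Its p was then the smallest of all 370. The two-sided exact permutation test without KO1 gave p = 0.00216, the smallest value that its 462 assignments allow. The SD of the KO log2 values was 1.25 with KO1 and 0.61 without it. Why KO1 departed from its group was not tested.

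**Figure D2:**
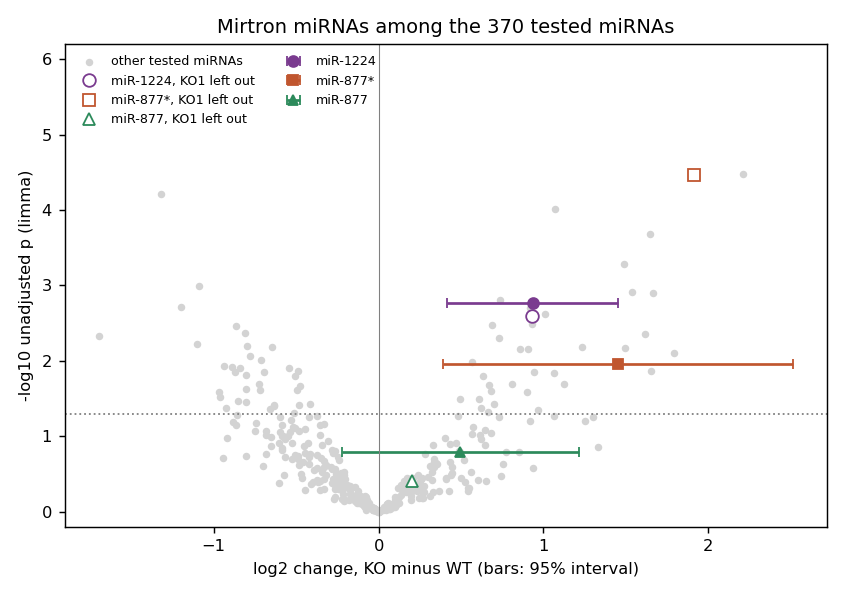
Unadjusted limma p (as -log10) against the log2 change, KO minus WT, for the 370 tested miRNAs, with the 3 tested mirtron miRNAs in colour and their 95% intervals as bars. Open symbols are the fit with KO1 left out, grey points are the fit of all 12 samples, and the dotted line is a p of 0.05, which miR-1224 and miR-877* passed in both fits and miR-877 in neither.

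miR-877, the 5′ arm of the hairpin, was dim. Its intensity was 41, 28, 23, 21, 24 and 40 in WT1 to WT6 and 111, 30, 35, 43, 31 and 27 in KO1 to KO6. KO1 was far above all others, KO4 was slightly above the highest WT sample, and the other 4 KO samples lay within the WT range. The mean was 29.5 ± 8.83 in WT and 46.2 ± 32.2 in KO (SD, n = 6 each), and 33.2 ± 6.18 in KO without KO1. The log2 change was 0.50 (SE 0.34), which is 1.41-fold with a 95% interval of 0.856 to 2.33, and its adjusted limma p was 0.452. With KO1 left out it was 0.20 (SE 0.23), with an adjusted limma p of 0.577. The two-sided exact permutation test gave p = 0.180 with KO1 and p = 0.364 without it.

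Both arms of Mir877 come from the same precursor, and their ratio within a mouse tests whether they differed unequally between the genotypes. The log2 ratio of miR-877* to miR-877 was 2.96, 2.40, 3.71, 3.95, 2.97 and 2.95 in WT1 to WT6. In KO1 it was 0.35, and in KO2 to KO6 it was 5.24, 5.05, 5.16, 4.61 and 4.27. KO2 to KO6 lay above every WT sample and KO1 lay below every one. The mean ratio was 3.16 ± 0.57 in WT and 4.11 ± 1.88 in KO (SD, n = 6 each), a difference of 0.96 with p = 0.258 in the two-sided exact permutation test (adjusted p = 0.418 over 3 ratios). Without KO1 the difference was 1.71, with an exact permutation p of 0.00433 and an adjusted p of 0.0130. An arm ratio rests on a pair of probes, so its own value does not give the molar ratio of the arms, and miR-877 lay near the filter in most mice.

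**Figure D3:**
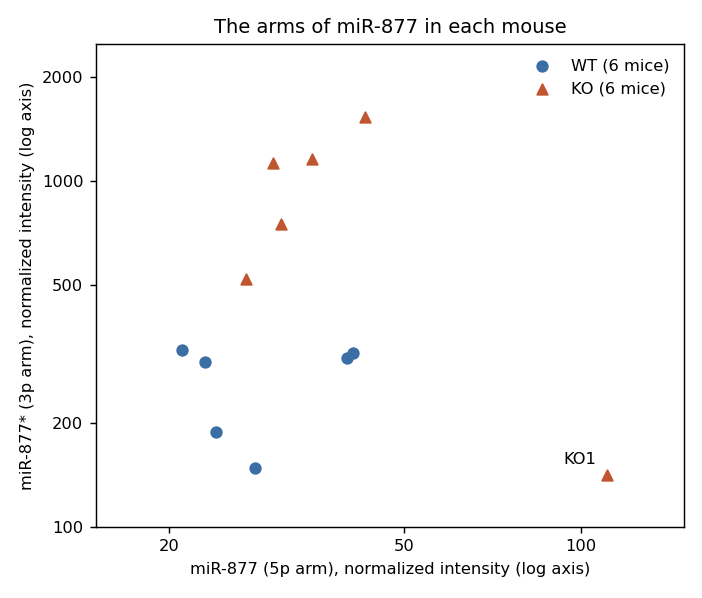
Intensity of miR-877* (3′ arm) against miR-877 (5′ arm) in each mouse, both on log axes. KO2 to KO6 lay between 522 and 1537 for miR-877* while their miR-877 lay between 27 and 43, and KO1 lay apart at 141 and 111.

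The other 2 ratios compare hairpins. The log2 ratio of miR-877* to miR-1224 differed by 0.52 between KO and WT (exact permutation p = 0.418, adjusted p = 0.418), and by 0.98 without KO1 (exact permutation p = 0.0628, adjusted p = 0.0942). The log2 ratio of miR-1224 to miR-877 differed by 0.44 (exact permutation p = 0.374, adjusted p = 0.418), and by 0.73 without KO1 (exact permutation p = 0.117, adjusted p = 0.117). An unequal difference of miR-877* and miR-1224 was therefore not shown by this test.

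No correlation between 2 members from mouse to mouse passed its test. Over the 12 mice, miR-877* and miR-1224 had a Pearson r of 0.44 (permutation p = 0.150, adjusted p = 0.451 over 3 pairs) and a Spearman rho of 0.45 (permutation p = 0.148, adjusted p = 0.444). Without KO3 and KO4, the mice farthest from the median of miR-877*, r was 0.38, and without KO1 it was 0.62. Within WT r was 0.04, and within KO it was -0.33. The arms miR-877* and miR-877 had r = -0.14 (permutation p = 0.696, adjusted p = 0.712) and rho = 0.13 (permutation p = 0.683, adjusted p = 1), with r = -0.33 without KO3 and KO4 and r = 0.45 without KO1. Among the WT mice their r was 0.20. Among the KO mice it was -0.74, where KO1 was the lowest in miR-877* and the highest in miR-877. With the group means removed it was -0.57. miR-1224 and miR-877 had r = 0.14 (permutation p = 0.712, adjusted p = 0.712) and rho = 0 (permutation p = 1, adjusted p = 1), with r = 0.20 without WT1 and WT2, the mice farthest from the median of miR-1224. Without KO1 the sign turned, to r = -0.14. For this pair r was -0.66 among the WT mice and -0.15 among the KO mice. No r within a group was tested.

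miR-702, the 3′ arm of Mir702, was the member that lay lower in KO. Its intensity was 21, 35, 34, 23, 23 and 44 in WT1 to WT6 and 31, 17, 21, 28, 14 and 17 in KO1 to KO6. The groups overlapped, with 3 KO samples below the lowest WT sample. The mean was 30 ± 9.12 in WT and 21.3 ± 6.77 in KO (SD, n = 6 each). The log2 difference was -0.50, with p = 0.0779 in the two-sided exact permutation test and p = 0.0411 without KO1. Every KO value was at 31 or below, and the size of the difference depended on how dim values were treated. It was -0.11 with a floor of 32 (exact permutation p = 0.182) and -0.16 with a pseudocount of 50 (exact permutation p = 0.0996). Its mean was under the filter, so its rank among the tested miRNAs was not computed. miR-702-5p is not among the array names.

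**Figure D4:**
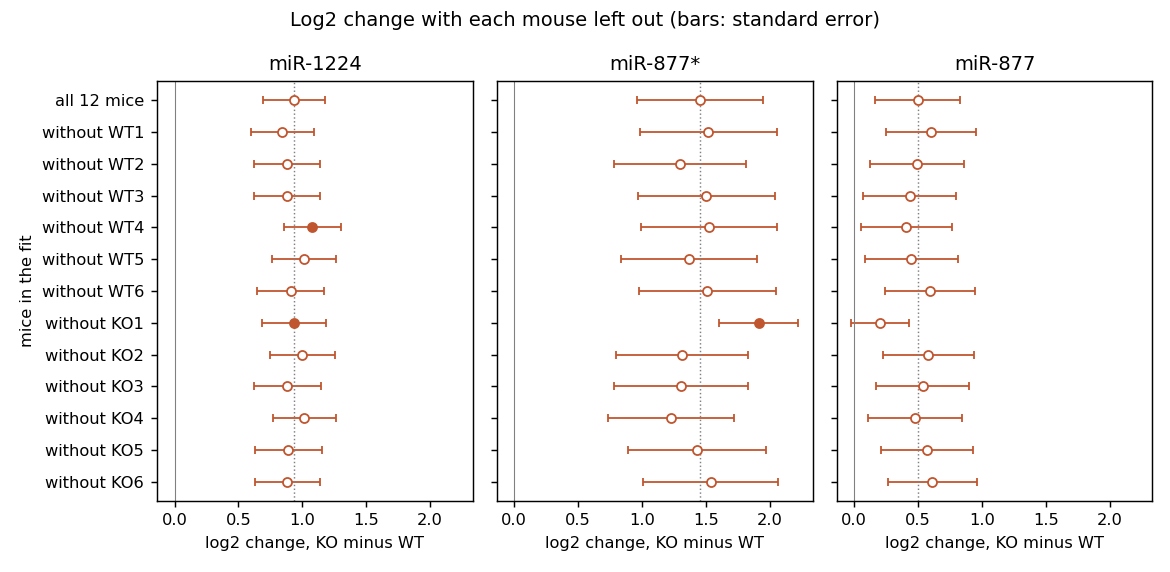
Log2 change, KO minus WT, of the 3 tested mirtron miRNAs with each mouse left out in turn (points, SE as bars), where a filled point has an adjusted limma p under 0.05. miR-877* moved most, to 1.91 without KO1, while miR-1224 lay between 0.84 and 1.08 and passed the threshold without WT4 and without KO1.

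Among the tested miRNAs, those whose log2 intensities were most like a member's over the 12 mice were found by Pearson correlation. The points are mice of both genotypes and share the dye labels, so a difference between the groups adds to each r, which is given as a description. For miR-1224 they were miR-1892 (r = 0.91, rho = 0.92), miR-705 (r = 0.89, rho = 0.80) and miR-3960 (r = 0.89, rho = 0.86). With the group means removed, these r were 0.87, 0.71 and 0.68. The log2 changes of the 3 were 0.94, 0.92 and 0.69, with adjusted limma p of 0.127, 0.0615 and 0.0790. The brightest, miR-3960, had a mean of 9461 ± 1637 in WT and 15248 ± 2569 in KO (SD, n = 6 each).

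For miR-877* the most alike was miR-210*, the other arm of the hypoxia-induced miR-210, with r = 0.96 and rho = 0.96, and r = 0.94 with the group means removed. Its mean was 77.2 ± 11.7 in WT and 133 ± 56.9 in KO (SD, n = 6 each). As for miR-877*, KO1 was the lowest KO sample, at 51 against 93 to 198 in the others. The log2 change of miR-210* was 0.66 (limma, adjusted p = 0.248), and 0.91 without KO1 (limma, adjusted p = 0.0267). miR-210 itself lay the other way, at -0.53 (limma, adjusted p = 0.497), and at -0.80 without KO1 (limma, adjusted p = 0.124). Next came miR-3102-3p.2 (r = 0.93, rho = 0.97), with KO1 at 18 and the other KO samples at 29 to 94. After it came miR-3077 (r = 0.85, rho = 0.82), with KO1 at 31 and the others at 34 to 77. With the group means removed, these r were 0.90 and 0.73. The means of these names were 26.3 and 26.8 in WT, and 50.2 and 50 in KO. Both thus passed the filter only through their higher KO values, and miR-877* was higher in KO too.

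The sequences of the names most like miR-1224 and miR-877* are shown so that their base composition can be compared. The runs of at least 2 G bases are in capitals in miR-1224, miR-1892 and miR-705, and the runs of at least 2 C bases in the others. RefSeq (GRCm38.p6) holds them, and miR-3960 was not found in the sequence table. The table holds both arms of miR-3077 under newer names, and which of them the array name means was not settled, so neither is printed.
miR-1224: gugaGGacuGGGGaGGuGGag
miR-1892: auuuGGGGacGGGaGGGaGGau
miR-705: GGuGGGaGGuGGGGuGGGca
miR-877*: uguCCucuucuCCCuCCuCCCa
miR-210*: agCCacugCCCaCCgcacacug
miR-3102-3p.2: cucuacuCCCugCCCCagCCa
G made up 61.9% of miR-1224, 54.5% of miR-1892 and 70% of miR-705, against a median of 26.9% over 1679 mature mouse miRNAs. Of those 1679, 0.715% had as high a share of G as miR-1224. C made up 54.5% of miR-877*, 50% of miR-210* and 57.1% of miR-3102-3p.2, against a median of 22.7%, and 1.85% had as high a share of C as miR-877*. The base counted, G or C, was picked by hand for each name after the names were known. The 1679 are all mature mouse miRNAs of the RefSeq table and not the tested names, among which these shares were not ranked. The arms of miR-3077 held 28% C (5′ arm) and 45.5% C (3′ arm), so a high share of C holds for it only if the array name is the 3′ arm. The other members were rich in C or G as well. C made up 13 of the 22 bases of miR-702 (log2 difference -0.50) and 12 of the 21 bases of miR-1224* (0.13). G made up 11 of the 20 bases of miR-877 (log2 change 0.50). The names most like miR-877 were not compared in this way. The part of base composition in these levels was not tested.

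For miR-877 the most alike were miR-675-5p, which is made from the imprinted H19 transcript (r = 0.84, rho = 0.81), miR-1894-3p (r = 0.82, rho = 0.43) and miR-412-5p (r = 0.81, rho = 0.73). KO1 was the highest KO sample in each, at 85 against 28 to 40, at 657 against 56 to 81, and at 423 against 144 to 241. Without KO1 these r were 0.76, 0.11 and 0.63, so the likeness of miR-1894-3p rested on that sample.

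Further array names come from hairpins that begin with GU, end with AG and lie in a coding gene, chosen after their values were seen. Besides the arms of Mir877 and Mir1224 these were both arms of miR-1981 and 3 names of miR-1982. miR-1982* passed the filter. Its mean was 32.2 ± 13.6 in WT and 45.2 ± 10.03 in KO (SD, n = 6 each), with a log2 change of 0.57 and an adjusted limma p of 0.309, and a log2 change of 0.55 without KO1. miR-1981 was under the filter, at 20.3 ± 5.47 in WT and 26.7 ± 5.20 in KO (SD, n = 6 each), and the remaining 3 names had means below 18 in both groups.

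Canonical miRNAs in introns also arise from host transcripts but are cut out by Drosha, and 40 of them served as a comparison list. For 37 of the 40, every hairpin matched in RefSeq lay within the span of a protein-coding gene. For the other 3 (miR-16, miR-30c and miR-7a), 1 of 2 matched hairpins did. On the array 39 were found, and 22 passed the filter. In limma 0 of the 22 were past the adjusted threshold, and 1 was higher and 8 were lower at an unadjusted limma p under 0.05. In direction alone 1 was higher and 21 were lower, with a median log2 change of -0.55. Over all 370 tested miRNAs 36 were higher and 36 lower at the unadjusted threshold, 160 were higher and 210 lower in direction, and the median was -0.08. In a comparison added after seeing the data, with KO1 left out, 10 of the 22 were lower and 0 higher past the adjusted threshold, with a median of -0.77, beside 27 lower and 22 higher of all 370 and a median of -0.04.

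Examples from the list were miR-126-3p, an endothelial miRNA in Egfl7 (log2 change -1.20, limma, adjusted p = 0.0615), miR-16, which restrains the cell cycle and has 1 of its 2 hairpins within Smc4 (-1.09, limma, adjusted p = 0.0586), and miR-103, in a pantothenate kinase gene (-0.80, limma, adjusted p = 0.0955). The 1 that lay higher past the unadjusted threshold was miR-326, in Arrb1 (0.68, limma, adjusted p = 0.170). Its mean was 25.5 in WT and 41.8 in KO, so it passed the filter only through its higher KO values. The tested mirtron miRNAs lay at 0.50, 0.93 and 1.45, but miR-877 passed the filter only with KO1 in the mean, and miR-702, at -0.50, did not pass it, so no contrast with the canonical list is drawn from these 3 values.

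**Figure D5:**
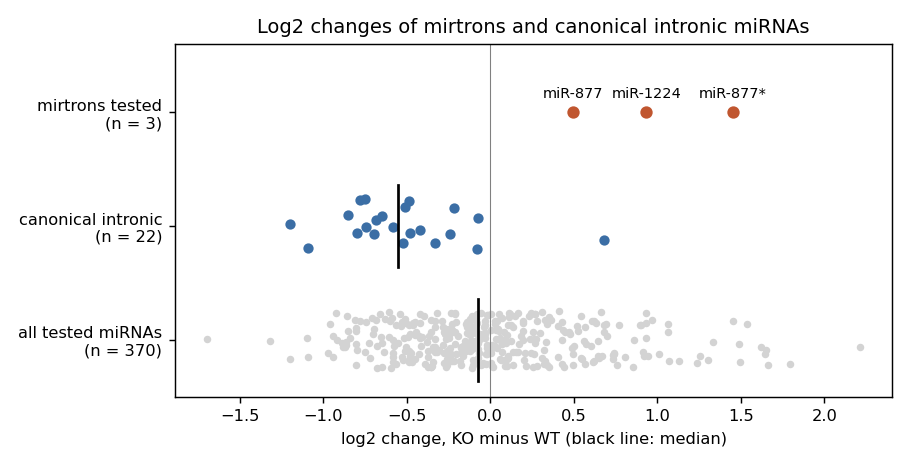
Log2 change, KO minus WT, of all 370 tested miRNAs, of the 22 tested canonical intronic miRNAs and of the 3 tested mirtron miRNAs, each point a miRNA and black lines the medians of the first and second sets. The mirtron miRNAs lay at 0.50, 0.93 and 1.45, and 21 of the 22 canonical intronic miRNAs lay below 0. miR-702, lower in KO, was under the filter and is not plotted.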

How the data were processed

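The authors deposited a single table of normalized array intensities, linear and in whole numbers, for 1096 names of mouse miRBase version 17 in 12 samples. Total RNA was isolated with a miRVana kit and hybridized by a service laboratory. The normalization method, the background correction and the test used for miRNAs are not given in the sources used here. An intensity has no read count behind it, so the number of mice sets the precision.

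Groups were taken from the genotype in the labels. Intensities below 1 were set to 1 before the log2 conversion. The 2 genotypes were fitted with limma 3.58.1 (R 4.3.3, lmFit with eBayes) over the 370 names with a mean of at least 32, two-sided, with Benjamini-Hochberg adjustment over all 370 and a threshold of 0.05. Single miRNAs and ratios were compared by exact permutation over 924 assignments, or 462 without KO1, and correlations with 100000 resamples. The p-values of ratios and correlations were adjusted with scipy 1.17.1. The limma fit was tested on simulated data with independent values, equal spread in both groups and no outlying sample. That test does not cover a sample like KO1. Named miRNAs were every member, the 3 tested miRNAs most correlated with each tested member, and any array name sharing a seed with a member. Seeds were compared with the mature sequences of the RefSeq table, where no other sequence carried one. Array names without a sequence there could not be checked. The members and lists were chosen with earlier results of these data known. Arm names were matched to RefSeq (GRCm38.p6) mature names, and plots were drawn with matplotlib 3.10.9. Alternatives were another floor, pseudocount, filter, scaling, test or weighting, the replicate number as a block, and each sample left out.

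Replicate numbers were checked for pairing: same-numbered samples deviated together with correlations of -0.45 to 0.59, of which 3 of 6 were over 0.1. In this check 5 of 12 samples correlated best with their own number. The numbers were not taken as pairs in the main fit. The methods describe 6 pairs of cofilin-2 deficient and littermate mice, and this check does not exclude that the numbers mark them. A fit with the replicate number as a block is therefore given among the alternatives. Only 79.7% of tested names had a sequence in the reference table, under the 80% needed, so a G+C correction and a G+C rich comparison group were void and not run.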

Additional observations from a re-analysis of the deposited data

Results flagged for a closer look

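miR-877 in KO1 had an intensity of 111, against 27 to 43 in the other 5 KO mice. The gap to the nearest KO mouse, on the log2 scale, was 0.671 of the whole range of the group, above Dixon's critical value of 0.625 for 6 samples. In all 10 groups were examined (5 members in KO and WT), of which chance flags 0.5 on average, or about 1 in 20.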

How the results depend on the processing

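No alternative turned the direction of any member or ratio. In every setting 2 members passed the unadjusted threshold. So did 57 to 156 of 370 miRNAs, 123 of 1096 with no filter and 45 of 144 with a mean of at least 500. For miR-1224 (log2 change 0.93, adjusted p = 0.0615), the adjusted threshold was passed with a pseudocount of 50 (0.91, adjusted p = 0.0403), a mean intensity of at least 500 (0.93, adjusted p = 0.0208), cyclic loess (1.03, adjusted p = 0.0464), a variance trend with robust estimation (0.93, adjusted p = 0.0276) and array weights (1.13, adjusted p = 0.00219). Over all its alternatives the adjusted p lay between 0.00219 and 0.223. For miR-877* (1.45) it was passed with array weights (2.06, adjusted p = 0.000844), a fit that gave KO1 a weight of 0.156 and called 115 of 370 miRNAs where the unweighted fit called 5. Its adjusted p lay between 0.000844 and 0.270 over the alternatives. The count of members past the adjusted threshold, 0 of 3, was thus 1 under each of the first 4 of these settings and 2 under array weights. Of all 370 tested miRNAs, these settings called 14 (pseudocount), 11 (cyclic loess) and 14 (variance trend), against 5 in the main fit. With a mean of at least 500, where only 2 members were tested, 21 of 144 were called. miR-877 passed it under no alternative.

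When the 12 mice were left out singly, the log2 change was 0.84 to 1.08 for miR-1224, 1.22 to 1.91 for miR-877* and 0.20 to 0.61 for miR-877, and the count was 0 to 2 (1 without WT4, 2 without KO1). Of all 370 tested miRNAs, 11 were past the adjusted threshold without WT4 and 49 without KO1. With any other mouse left out 3 to 8 were, and with all 12 mice 5 were. The log2 ratio of miR-877* to miR-877 ranged from 0.73 to 1.71 and passed the threshold without KO1 alone. The ratio of miR-877* to miR-1224 ranged from 0.21 to 0.98 and that of miR-1224 to miR-877 from 0.24 to 0.73. The log2 difference of miR-702 ranged from -0.62 to -0.38, and that of miR-1224* from 0.03 to 0.22. With all 12 mice miR-702 was at -0.11 with a floor of 32 and at -0.16 with a pseudocount of 50. With the replicate block, miR-1224 was at 0.93 (adjusted p = 0.106), miR-877* at 1.45 (adjusted p = 0.139) and miR-877 at 0.50 (adjusted p = 0.329), and the block changed no call of the fit without other scaling. With the block and cyclic loess together, they were at 1.03 (adjusted p = 0.0820), 1.62 (adjusted p = 0.120) and 0.38 (adjusted p = 0.473), so the call of miR-1224 under cyclic loess was lost with the block and the count went from 1 to 0. In the check for pairing 5 of 12 samples correlated best with their own number. Why the calls moved was not tested.

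The settings for the correlations without KO1, for the members under the filter and for the canonical intronic list without KO1 were chosen after seeing the data. The G+C correction, alone and with the block, was not run. With a mean of at least 500 miR-877 was not tested, and with a floor of 32 miR-1224* had no value above it. Dim members, near an intensity of 32, limit what the array can resolve.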
